A study of Mus musculus with 12 samples.

Results

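The contacts described here are those of the Tri-C viewpoint cMyc, a capture point beside the mouse gene Myc, with pairs of DNA fragments that both lay within 1 Mb of it. Tri-C ligates chromatin that is close together in the nucleus, captures the ligation products that hold 1 chosen restriction fragment (the viewpoint) and reads out which other fragments (the reporters) were joined to it in the same molecule. A pair of reporters on 1 viewpoint is a three-way contact, and the tables list how often each pair was counted. Members were all fragment pairs of this viewpoint whose midpoints were both within 1 Mb of the start of its capture oligo. There were 10961 distinct pairs, of which 7254 were listed in naive cells and 4646 in primed cells. These are 11900 entries of the 159167 in the 46 tables of the 23 viewpoints, a pair listed in both states being 2 entries.

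Myc encodes a transcription factor that drives growth, ribosome production and the cell cycle, and in mouse embryonic stem cells its transcription responds to LIF and Stat3 signalling. Pvt1, the long noncoding RNA gene that follows Myc on the same strand, spans a long stretch of DNA and holds enhancers that act on Myc in several cell types. Contacts along a chromosome fall off with distance from the viewpoint, so a region is best read against others at a like distance or against itself in another state.

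The cells were J1, an established mouse embryonic stem cell line. Naive cells were kept in serum-free N2B27 medium with 2i (inhibitors of Mek and Gsk3) and LIF. Primed cells were the same line after 7 days without 2i and LIF, with Fgf2 and Activin A. The capture oligo of cMyc was in pool 2, for which 3 biological replicates of each state were labelled, but 1 table per state was given for the viewpoint and was taken as their pool, so no difference below has a replicate check.

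The oligo covered chr15:61979284-61979383 (mm10), in no annotated gene and 6.06 kb upstream of the start of Myc. Downstream here means towards Myc and Pvt1, the direction in which both genes are transcribed. The fragment it captured runs between 2 sites of DpnII, the restriction enzyme that cuts at GATC, and lies at chr15:61979266-61979401 in mm10 with 136 bases between the sites. A second viewpoint of the study, cMyc-2, was captured from the other side of Myc with an oligo 31.5 kb further downstream, between Myc and Pvt1, and belonged to pool 1. Both fragments are printed because every count below starts from 1 of them, read on the forward strand of the NCBIM37 genome at chr15:61810817-61810960 and chr15:61842317-61842450, where each oligo had 1 exact match. Capitals mark the DpnII sites.
cMyc: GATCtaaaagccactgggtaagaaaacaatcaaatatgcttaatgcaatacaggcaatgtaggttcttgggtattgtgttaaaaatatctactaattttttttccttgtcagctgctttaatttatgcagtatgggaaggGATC
cMyc-2: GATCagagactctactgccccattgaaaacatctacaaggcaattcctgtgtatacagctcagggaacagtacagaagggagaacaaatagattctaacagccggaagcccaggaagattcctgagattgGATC

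The cMyc table held 17055 counts in naive and 11990 in primed cells, the third highest of the 23 naive totals and the fourth highest of the 23 primed ones. Totals of all viewpoints ran from 5 to 41081 in naive cells, with a median of 92, and from 3 to 32749 in primed cells, with a median of 74. The viewpoint fragment and the fragments on either side of it were absent from both cMyc tables, while all 3 were listed in those of cMyc-2. Of the counts, 11008 (64.5%, 63.8 to 65.3) lay within 1 Mb in naive cells and 6869 (57.3%, 56.4 to 58.2) in primed cells. The share was thus higher in naive cells, with a naive over primed ratio of 1.13 (1.09 to 1.16). Intervals of shares are exact 95% binomial intervals (Clopper-Pearson). Those of ratios between the states are exact 95% intervals of the split of the counts, scaled by the totals. The latter do not use that a count is part of its total, so they are too wide where a share is large. An interval that just includes 1 can thus stem from the method. Both kinds of interval cover counting error only, since the reads carried no molecular identifiers and the spread between replicates cannot be had.

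Few of the same fragment pairs were found in both states. The 939 shared pairs were 12.9% of those listed in naive and 20.2% of those in primed cells. Most pairs were counted once, which is 78.2% of the distinct pairs used below in naive cells and 77.3% in primed cells. The counts therefore describe regions better than single fragment pairs.

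For the comparison, counts with a reporter within 5 kb of the oligo start were left out, which removed 2806 counts (25.5%) in naive and 1646 (24.0%) in primed cells. This left 8202 naive and 5223 primed counts, and every share below is of these totals unless another is named. A count is placed in a region if at least 1 of its reporters has its midpoint there, and the ratio always sets the naive share over the primed share. A count whose reporters lie in different regions enters the share of both, and since all shares of a state have the same total, more counts in 1 place leave fewer for others.

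The reporters of the cMyc viewpoint lay more on the side of Myc and Pvt1 in naive cells and more on the opposite side in primed cells. Both reporters were downstream of the oligo in 5592 naive counts (68.2%, 67.2 to 69.2) and in 2812 primed counts (53.8%, 52.5 to 55.2), a ratio of 1.27 (1.21 to 1.33). Both were upstream in 1572 naive counts (19.2%, 18.3 to 20.03) and in 1687 primed counts (32.3%, 31.0 to 33.6), a ratio of 0.593 (0.554 to 0.636). The number of upstream counts was thus higher in primed cells although the primed total was lower. Counts with 1 reporter on each side made up 12.7% (11.9 to 13.4) in naive and 13.9% (12.9 to 14.8) in primed cells, with a ratio of 0.913 (0.830 to 1.01). That interval included 1, but the interval left out 1 with nothing, 2 kb or 10 kb left out around the oligo, where the ratios were 0.921 (0.858 to 0.988), 0.917 (0.844 to 0.996) and 0.883 (0.796 to 0.980). The ratio was 0.942 (0.849 to 1.05) with each pair weighted once, and in narrower windows it was 1.01 (0.879 to 1.15) at 500 kb and 1.03 (0.835 to 1.29) at 200 kb, so neither direction held across these settings.

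**Figure D1:**
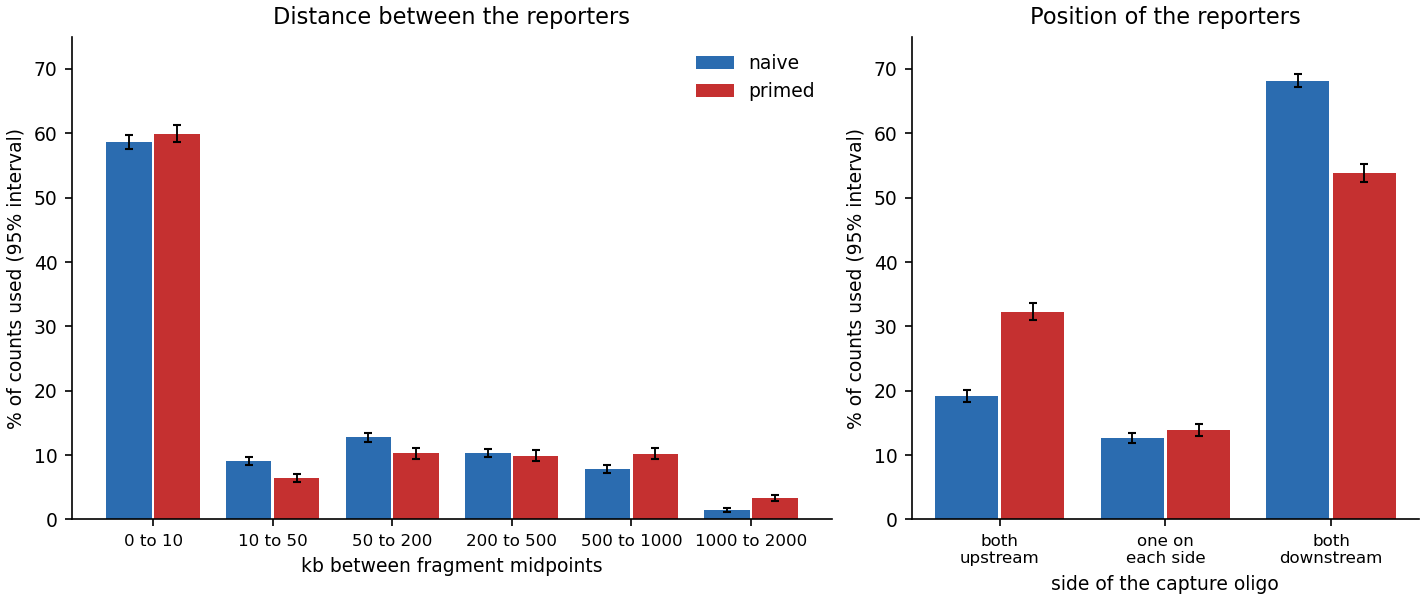
Share of the counts used (%, y axis) by the distance between the midpoints of the reporters (left, kb) and by the side of the capture oligo they lay on (right), in naive (blue) and primed (red) cells; bars start at 0 and error bars are exact 95% binomial intervals. Both reporters lay downstream in 68.2% of naive and 53.8% of primed counts, and pairs 1000 to 2000 kb apart made up 1.43% and 3.33%.

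The distance between the reporters differed less at short range than at long range. Reporters less than 10 kb from each other made up 58.6% of naive and 59.9% of primed counts, a ratio of 0.979 (0.935 to 1.02). Pairs 10 to 50 kb apart made up 9.06% and 6.39%, a ratio of 1.42 (1.24 to 1.62). Pairs 50 to 200 kb apart had a ratio of 1.24 (1.12 to 1.38). Naive cells thus held a larger share of reporter pairs at these middle distances. From 200 to 500 kb the ratio was 1.04 (0.934 to 1.17), and from 500 to 1000 kb it was 0.766 (0.682 to 0.861). Pairs 1000 to 2000 kb apart, which span the viewpoint by necessity, were 117 counts in naive against 174 in primed cells, which gave a ratio of 0.428 (0.336 to 0.544). Taking all pairs over 50 kb apart as 1 class hid these opposite differences, with a naive share of 32.3%, a primed share of 33.7% and a ratio of 0.959 (0.903 to 1.02). In a window of 200 kb on each side, which leaves out the farthest pairs, the ratio of that class was 1.28 (1.10 to 1.503).

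Many short pairs were direct neighbours in the genome. Fragments separated by a single DpnII site made up 3355 of the naive counts (40.9%) and 2229 of the primed counts (42.7%). Such pairs may also arise where the site between them was not cut, and the tables do not tell the cases apart. With them left out, both reporters were downstream in 63.6% of naive and 48.2% of primed counts, a ratio of 1.32 (1.24 to 1.40). The ratio of counts with 1 reporter on each side was then 0.886 (0.805 to 0.975) and that of pairs over 50 kb apart 0.930 (0.875 to 0.989), both below 1.

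Myc itself was contacted more in naive cells. The gene lies at chr15:61985341-61990361 (mm10), within 6.06 to 11.1 kb of the oligo start, and was the only protein-coding gene of 12 annotated genes in the window. A reporter lay in Myc in 439 naive counts (5.35%, 4.88 to 5.86) and in 140 primed counts (2.68%, 2.26 to 3.16). The ratio was 2.00 (1.65 to 2.43), and 2.07 (1.61 to 2.68) with neighbouring fragments left out. The counts came from 247 distinct pairs in naive and 87 in primed cells, and with each pair weighted once the ratio was 1.86 (1.45 to 2.41).

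The ratios of single fragments in Myc varied along the gene. All 16 DpnII fragments assigned to Myc were seen in both states. Each fragment held 15 to 73 naive counts and 4 to 26 primed counts. The 8 fragments nearest to the start, with midpoints 6.41 to 7.99 kb from the oligo start, all had ratios whose interval lay above 1. The fragment at chr15:61985885-61985960 had 54 naive and 9 primed counts, a ratio of 3.82 (1.87 to 8.80), the highest of the 16. The most counted fragment of the gene, at chr15:61986525-61986666, had 73 and 26, a ratio of 1.79 (1.13 to 2.92). Of the other 8 fragments 1, at chr15:61987880-61988628, had an interval above 1, with 19 and 4 counts and a ratio of 3.02 (1.01 to 12.2). The ratios of the other 7 ran from 0.796 to 2.37 with intervals that included 1, and the lowest, at chr15:61989732-61989769, had 15 and 12 counts (0.348 to 1.86). A difference between the fragments was not tested. Nor are the fragments separate measures, since a count with both reporters in Myc enters both of its fragments. There were 193 such counts in naive and 67 in primed cells, of which 35 and 11 were left without neighbouring fragments. The ratios of single fragments were not computed without them.

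Pvt1 showed the same direction over a far longer span. It lies at chr15:62037986-62260215, 58.7 to 280.9 kb downstream of the oligo. A reporter lay in Pvt1 in 3056 naive counts (37.3%, 36.2 to 38.3) and in 1047 primed counts (20.05%, 19.0 to 21.2), a ratio of 1.86 (1.73 to 2.00). These were 2072 distinct pairs in naive and 780 in primed cells. Macroh2a3, a transcribed pseudogene inside the span of Pvt1, held 19 naive and 3 primed counts, a ratio of 4.03 (1.19 to 21.3) that without neighbouring fragments became 2.68 (0.736 to 14.6).

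The stretch between the end of Myc and the start of Pvt1 moved with both genes. It was contacted in 1117 naive counts (13.6%) and in 401 primed counts (7.68%), a ratio of 1.77 (1.58 to 1.99). From the end of Pvt1 to 500 kb downstream the shares were 17.9% and 18.2%, a ratio of 0.986 (0.908 to 1.07). The higher naive share thus ended near the end of Pvt1. From 500 to 1000 kb downstream the shares were 20.4% and 29.0%, a ratio of 0.705 (0.657 to 0.756).

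The values of the other annotated genes of the window differed in direction and depth. D030024E09Rik, a long noncoding RNA gene upstream of the viewpoint, held 283 naive and 217 primed counts, a ratio of 0.830 (0.693 to 0.996) that without neighbouring fragments was 0.850 (0.688 to 1.05). Among the predicted noncoding genes further upstream, Gm29904 held 55 and 53, a ratio of 0.661 (0.445 to 0.982), and Gm38563 held 18 and 32, a ratio of 0.358 (0.189 to 0.658). Without neighbouring fragments their ratios were 0.463 (0.286 to 0.744) and 0.206 (0.0852 to 0.451). The pseudogene Gm18788 held 13 counts in each state. Downstream, the noncoding gene Gm41333 held 71 and 60, a ratio of 0.754 (0.527 to 1.08). The small genes Gm24696, Gm18154 and Gm22521 held no count in either state. Whether a fragment midpoint lies in them was not tested.

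Gm30113 stood apart from the other far genes. This noncoding gene lies at chr15:62954216-62957872, 975 to 979 kb downstream of the oligo. Its naive count was 50 and its primed count 4, a ratio of 7.96 (2.92 to 30.3). The counts came from 29 distinct pairs on 9 fragments in naive cells and from 4 distinct pairs on 4 fragments in primed cells, and without neighbouring fragments the ratio was 9.88 (2.52 to 85.1). The gene was picked out after its values were seen.

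**Figure D2:**
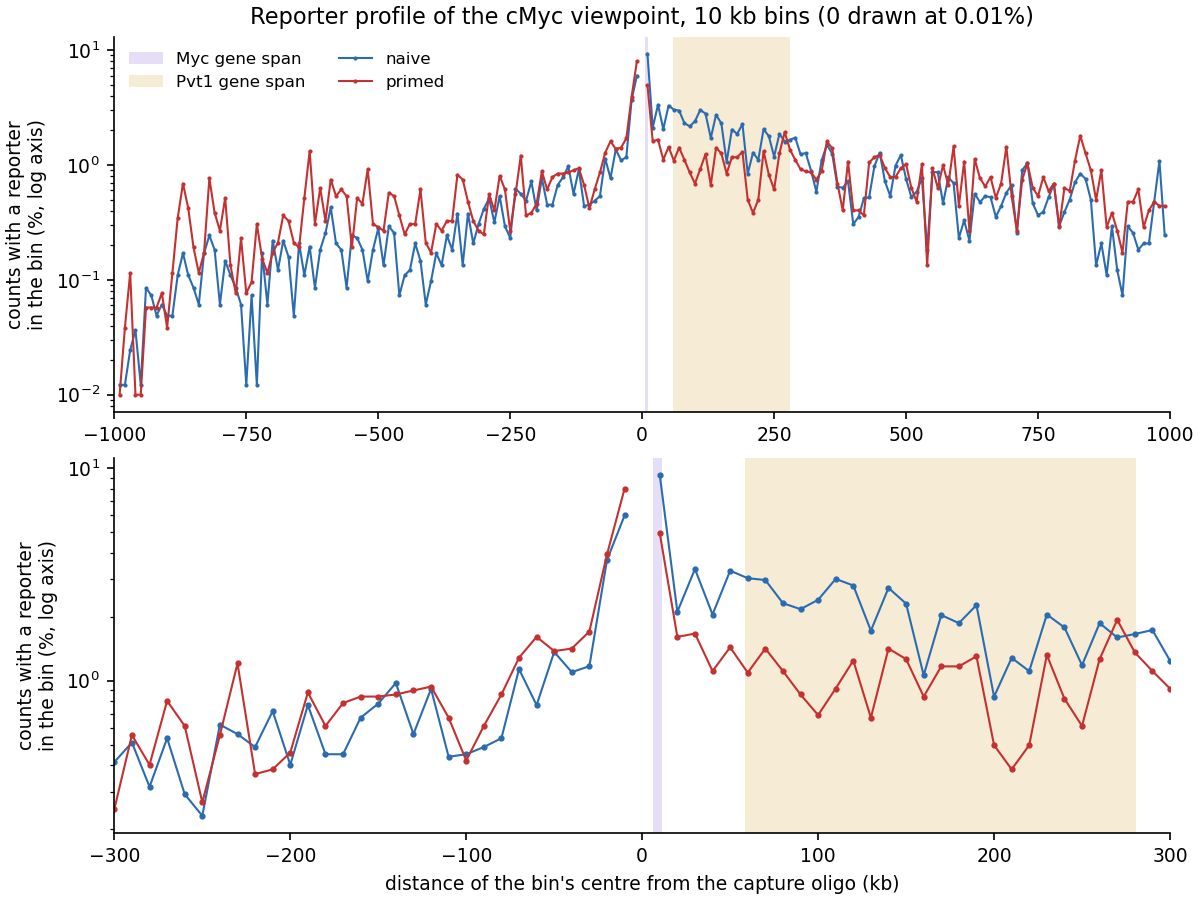
Share of counts with a reporter in each 10 kb bin (%, log y axis) against the distance of the bin's centre from the capture oligo (kb, x axis; positive towards Myc), for the whole window (top) and its inner 300 kb (bottom), in naive (blue) and primed (red) cells; shading marks Myc and Pvt1, and the central bin is left out. The naive line runs above the primed one from Myc through most of Pvt1 and below it over most of the far upstream side.

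A finer map came from bins of 10 kb counted from the oligo start, with the bin around it left out. A bin was called where its share differed by at least 1.5-fold and its interval left out 1, among bins with at least 50 counts over both states. Of 198 bins, 118 had enough counts. Of these 26 (22.0%) were higher and 27 (22.9%) were lower in naive cells. The called bins were not spread evenly: 23 of the 25 bins from 5 to 255 kb downstream were higher in naive cells and none was lower, with ratios from 1.26 to 3.48 and a median of 2.01, against a median of 0.910 over all 118 bins. This stretch was delimited after the values were seen. Of the 23 bins that overlap Pvt1 19 were higher, none was lower and 4 were not called, and their median ratio was 1.93.

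On the upstream side few bins were higher in naive cells. Of the 27 bins centred within 300 kb upstream that had enough counts, 1 was higher and 6 were lower in naive cells, the latter a share close to the 22.9% over all bins, and the median ratio was 0.796. Further upstream 9 bins had enough counts, most of them through their primed counts, so their calls are not read as a result. Over that whole stretch, from 300 to 1000 kb upstream and without a minimum, 731 naive counts (8.91%) and 1025 primed counts (19.6%) had a reporter, a ratio of 0.454 (0.412 to 0.4998). Downstream of Pvt1 the 21 bins centred up to 500 kb held 1 higher and 1 lower call, with a median of 0.938. The 33 bins centred beyond 500 kb downstream held 1 higher and 12 lower calls. Some of the lower ones reached the minimum through their primed counts, such as the bin from 865 to 875 kb with 17 naive and 47 primed counts, so the calls are not read as a result beside the ratio of 0.705 given above for that stretch without a minimum. With each distinct pair counted once, the higher calls over all bins were again 26 while the lower calls fell to 14. On that weighting 104 bins had enough counts.

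The 5 bins with the most counts lay close to the viewpoint. The bin that holds Myc, 5 to 15 kb downstream, had 762 naive and 258 primed counts, a ratio of 1.88 (1.63 to 2.17). Its counterpart at the same distance upstream, from -15 to -5 kb, had 491 and 418, a ratio of 0.748 (0.655 to 0.854). The next bin upstream, from -25 to -15 kb, had 303 and 205, a ratio of 0.941 (0.786 to 1.13). The bin of Myc was thus higher in naive cells, while the first bin upstream was lower by less than 1.5-fold and the second could not be told from equal shares. The bin from 25 to 35 kb downstream, which holds the cMyc-2 oligo, had 275 and 87, a ratio of 2.01 (1.58 to 2.59). The bin from 45 to 55 kb, just before Pvt1, had 270 and 75, a ratio of 2.29 (1.77 to 3.00).

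The 3 called bins with the highest ratios all lay in Pvt1. The bin from 95 to 105 kb had 197 naive and 36 primed counts, a ratio of 3.48 (2.43 to 5.12). The bin from 205 to 215 kb had 105 and 20, a ratio of 3.34 (2.06 to 5.70), and the bin from 105 to 115 kb had 247 and 48, a ratio of 3.28 (2.40 to 4.56). Each rested on many pairs, with 131, 66 and 167 distinct pairs in naive cells and 26, 15 and 45 in primed cells.

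The 3 called bins with the lowest ratios lay far upstream, where the minimum favoured bins with many primed counts, and rested on fewer pairs. The bin from -525 to -515 kb had 8 naive and 48 primed counts, a ratio of 0.106 (0.0434 to 0.226), from 7 and 13 distinct pairs. The bin from -345 to -335 kb had 11 and 39, a ratio of 0.180 (0.0830 to 0.358), from 11 and 19 distinct pairs. A single pair of fragments, with midpoints at -520.7 and -341.8 kb, gave 17 of the primed counts of both bins and had none in naive cells. The bin from -635 to -625 kb had 16 and 69, a ratio of 0.148 (0.0800 to 0.257), from 16 and 31 distinct pairs, and 1 pair of neighbouring fragments gave 22 of its primed counts.

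**Figure D3:**
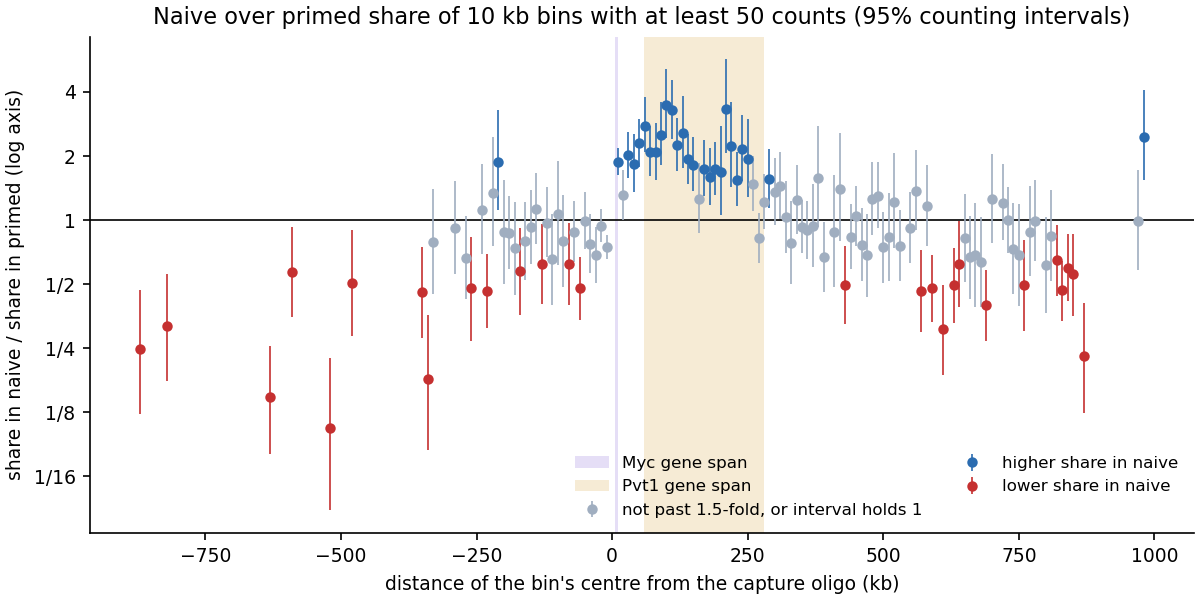
Naive share over primed share (log y axis) of each 10 kb bin with at least 50 counts against the distance of its centre from the capture oligo (kb), with exact 95% counting intervals; colours mark bins at least 1.5-fold higher (blue) or lower (red) in naive cells, and shading marks Myc and Pvt1. Of the 26 higher bins 23 lie between 5 and 255 kb downstream; the other 3 lie at -215 to -205, 285 to 295 and 975 to 985 kb. Bins over 300 kb upstream are shown only where they reached 50 counts, which favoured those with many primed counts.

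In windows of 100 kb the ratio declined over the first 400 kb downstream. The window from 5 to 100 kb held 27.9% of naive and 14.3% of primed counts, a ratio of 1.95 (1.79 to 2.12). The ratio was 1.93 (1.74 to 2.13) from 100 to 200 kb and 1.53 (1.37 to 1.71) from 200 to 300 kb. It was 0.988 (0.877 to 1.12) from 300 to 400 kb, where the states could not be told apart. Upstream, the ratio was 0.788 (0.725 to 0.857) in the first window, 0.798 (0.696 to 0.916) from 100 to 200 kb and 0.876 (0.746 to 1.03) from 200 to 300 kb. It was 0.570 (0.464 to 0.701) from 300 to 400 kb, 0.442 from 400 to 500 kb, 0.441 from 500 to 600 kb and 0.337 (0.267 to 0.425) from 600 to 700 kb. From 900 to 1000 kb upstream, where counts were fewest, it was 0.731 (0.422 to 1.27).

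The side on which contacts prevailed near the viewpoint also differed between the states, a comparison within each state that does not rest on the total. From 5 to 100 kb, naive cells had 2286 counts downstream and 1254 upstream, which is 1.82 (1.70 to 1.95) downstream for each upstream. Primed cells had 748 downstream and 1013 upstream, which is 0.738 (0.671 to 0.812). From 100 to 200 kb the quotient was 3.26 (2.94 to 3.62) in naive and 1.35 (1.18 to 1.55) in primed cells. Within 100 kb, contacts thus prevailed on the side of Myc in naive cells and on the opposite side in primed cells.

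Each gene was also set against its mirror, a stretch of the same length at the same distance on the upstream side. Intervals are those of the split of the counts, and here too a count can enter both stretches. Myc had 439 counts and its mirror 292 in naive cells, a quotient of 1.503 (1.29 to 1.75). In primed cells Myc had 140 and its mirror 216, a quotient of 0.648 (0.520 to 0.805). Myc thus exceeded its mirror in naive cells alone. A single pair of direct neighbours, with 1 fragment in the mirror at -6.4 kb, gave 33 of the naive and 38 of the primed mirror counts. The mirrors were not recounted without neighbouring fragments. Pvt1 exceeded its mirror in both states, by 3.18 (2.95 to 3.42) in naive and 1.37 (1.24 to 1.5003) in primed cells. The 10 kb around the cMyc-2 oligo had 238 counts against 80 in its mirror in naive cells, a quotient of 2.98 (2.30 to 3.88), and 79 against 79 in primed cells.

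Of the 5 single fragments outside the central bin with the most counts summed over both states, 4 lay just upstream of the viewpoint and 1 in Myc, which had the highest naive count of the 5. The fragment at chr15:61972959-61973777 had 67 naive and 70 primed counts, a ratio of 0.610 (0.429 to 0.865). Its neighbour at chr15:61972814-61972954 had 65 and 60, a ratio of 0.690 (0.478 to 0.997), and these 2 neighbours formed the pair with the highest count in each state, 33 in naive and 38 in primed cells. The fragment at chr15:61973916-61974060 had 60 and 53, a ratio of 0.721 (0.490 to 1.06). The fragment in Myc named above, with 73 and 26, was the fourth by the sum. The fifth, at chr15:61970684-61970775, had 61 and 37, a ratio of 1.05 (0.687 to 1.62).

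Three-way contacts that joined the viewpoint to Myc and to Pvt1 at once were rare and took a larger share in naive cells. A reporter in Myc and another in Pvt1 occurred in 87 naive counts (1.06%, 0.850 to 1.31) and in 16 primed counts (0.306%, 0.175 to 0.497), a ratio of 3.46 (2.02 to 6.32). These were 78 and 13 distinct pairs. The mirrors of Myc and Pvt1 were joined in 12 naive and 19 primed counts, a ratio of 0.402 (0.178 to 0.873). Contacts of both genes at once thus took a larger share in naive cells and those of their mirrors a smaller one. Each gene taken alone already had a higher naive share, with ratios of 2.00 for Myc and 1.86 for Pvt1. Whether the joint ratio goes beyond what these give together was not tested, nor was it for the mirrors.

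Several other combinations that involve Myc, Pvt1 or the stretch between them were also higher in naive cells, but not all. Myc together with the stretch between the genes had 70 naive and 10 primed counts, a ratio of 4.46 (2.29 to 9.70). That stretch together with Pvt1 had 249 and 61, a ratio of 2.60 (1.96 to 3.50). Both reporters lay in Pvt1 in 1936 naive and 614 primed counts, a ratio of 2.01 (1.83 to 2.20), and with neighbouring fragments left out in 903 and 258, a ratio of 2.16 (1.88 to 2.49). Pvt1 together with the 300 kb upstream had 290 and 104, a ratio of 1.78 (1.41 to 2.24). Myc together with the 300 kb upstream had 21 and 14, a ratio of 0.955 (0.463 to 2.03), which at this depth could not be told from 1. The stretch between the genes together with the far upstream side had 20 and 25, a ratio of 0.509 (0.268 to 0.955), Myc with the far upstream side had 7 and 6, a ratio of 0.743 (0.214 to 2.68), and Pvt1 with the far downstream side had 169 and 109, a ratio of 0.987 (0.771 to 1.27). Myc together with the 10 kb around the cMyc-2 oligo had 16 and 2, a ratio of 5.09 (1.20 to 45.7). This became 4.26 (0.965 to 38.9) when repeats of a pair were ignored.

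Far contacts with each other went the opposite way. Both reporters lay 300 to 1000 kb upstream in 386 naive and 581 primed counts, a ratio of 0.423 (0.371 to 0.482). Both lay 500 to 1000 kb downstream in 933 and 908, a ratio of 0.654 (0.597 to 0.718). The far upstream with the near upstream side had 107 and 183, a ratio of 0.372 (0.291 to 0.475). Of the 21 combinations of 2 different regions among the 7 into which the window was split, the interval lay above 1 for 7, below 1 for 6 and included 1 for 8. The 7 higher combinations each included Myc, the stretch between the genes or Pvt1. So did 1 of the 6 lower ones, that of the stretch with the far upstream side. Most of the 21 combinations include at least 1 of these regions, so this is not read as a result about them. Myc with the stretch from Pvt1 to 500 kb, for example, had a ratio of 1.18 (0.595 to 2.45). The regions were delimited after the values of the window were seen.

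**Figure D4:**
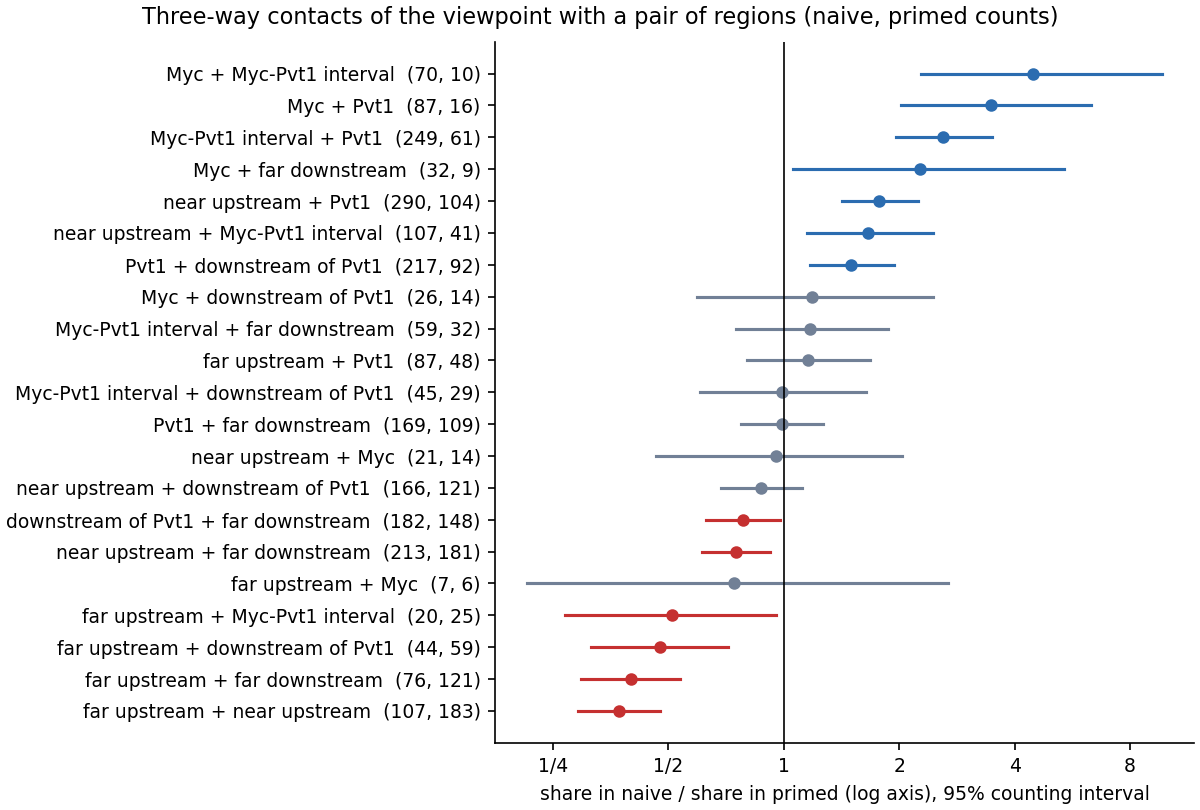
Naive share over primed share (log x axis, points, with exact 95% counting intervals) of three-way contacts of the viewpoint with each of the 21 combinations of different regions, with the naive and primed counts in brackets; blue intervals lie above 1, red ones below and grey ones include it. Near upstream is 5 to 300 kb and far upstream 300 to 1000 kb from the oligo, downstream of Pvt1 reaches to 500 kb and far downstream from 500 to 1000 kb. The highest ratios, 4.46 and 3.46, are those of Myc with the stretch up to Pvt1 and with Pvt1.

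What the second reporter was, given that the first lay in a gene, differed as well. Among counts with 1 reporter in Myc and the other outside it, 246 in naive and 73 in primed cells, the other lay between the genes in 28.5% (22.9 to 34.5) and 13.7% (6.77 to 23.8), a ratio of 2.08 (1.07 to 4.52). It lay in Pvt1 in 35.4% and 21.9%, a ratio of 1.61 (0.940 to 2.95), and within 300 kb upstream in 8.54% and 19.2%, a ratio of 0.445 (0.216 to 0.946). Among the 1120 naive and 433 primed counts with 1 reporter in Pvt1 and the other outside it, the other lay in Myc in 7.77% (6.27 to 9.49) and 3.70% (2.13 to 5.93), a ratio of 2.10 (1.22 to 3.84). It lay 500 to 1000 kb downstream in 15.1% and 25.2%, a ratio of 0.599 (0.468 to 0.770). Given a contact with Myc, the partner thus lay more often between the genes and less often upstream in naive cells. Over all counts used, the ratios were 1.77 for the stretch between the genes, 1.86 for Pvt1 and 2.00 for Myc. They were 0.806 (0.754 to 0.862) for the 300 kb upstream and 0.705 for 500 to 1000 kb downstream. Whether the ratios given a gene differ from these was not tested.

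At the scale of 10 kb bins, 43 bin pairs had at least 50 counts, and in all of them both reporters lay in the same bin. Of these 16 (37.2%) were higher and 7 (16.3%) lower in naive cells by the rule used for bins. Since the minimum is a sum over both states, a bin pair may pass it through the state in which it is high, so these calls are given as a description. The highest ratios were in Pvt1, at 95 to 105 kb with 60 naive and 8 primed counts, a ratio of 4.78 (2.27 to 11.6), at 105 to 115 kb with 75 and 13, a ratio of 3.67 (2.02 to 7.22), and at 125 to 135 kb with 43 and 9, a ratio of 3.04 (1.46 to 7.10). The lowest were at 585 to 595 kb with 18 and 43, a ratio of 0.267 (0.145 to 0.472), at 825 to 835 kb with 23 and 39, a ratio of 0.376 (0.214 to 0.645), and from -65 to -55 kb with 21 and 31, a ratio of 0.431 (0.236 to 0.775). Most of these counts came from neighbouring fragments: at 95 to 105 kb, 8 naive and 4 primed counts were left without them. With each distinct pair counted once, 13 bin pairs had enough counts, of which 3 were higher and 2 lower. At this depth the tables resolved three-way contacts between regions, not between single bins.

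**Figure D5:**
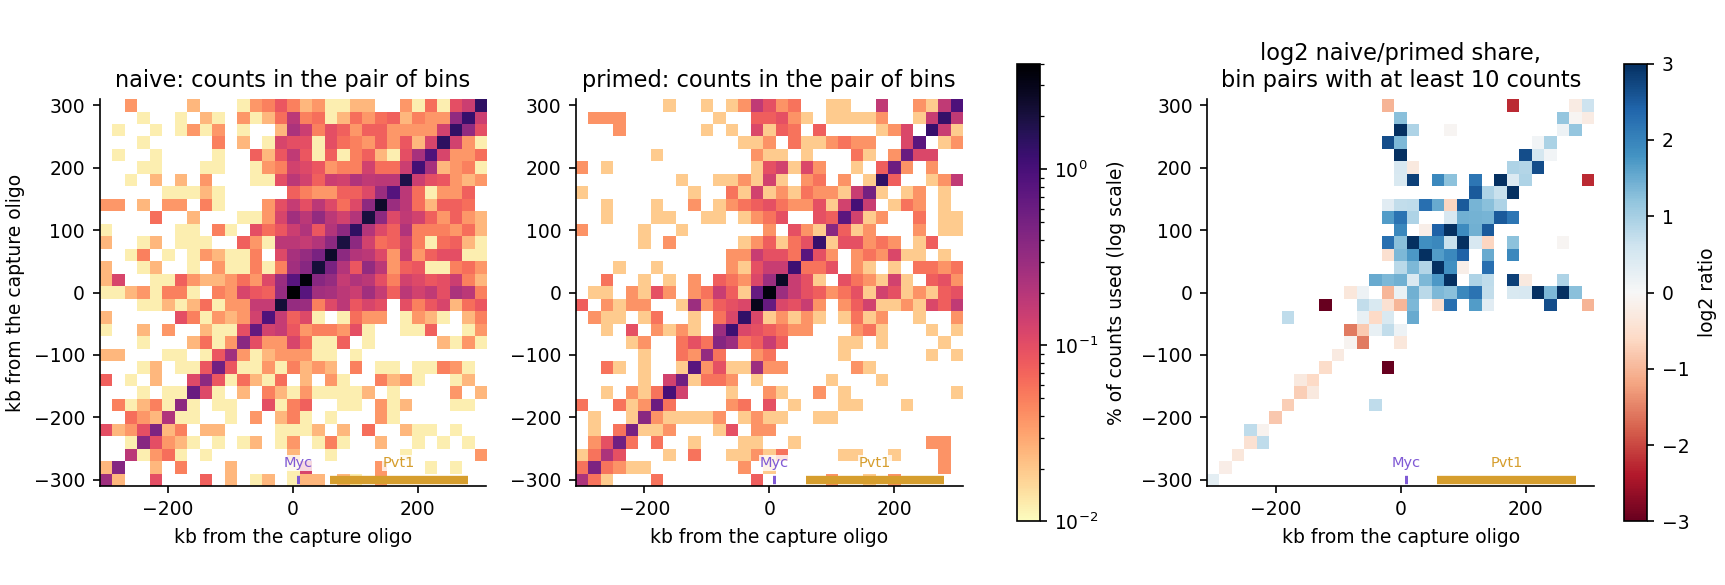
Three-way contacts of the cMyc viewpoint within 300 kb in 20 kb bins, both axes in kb from the capture oligo: share of the counts used in each pair of bins (log colour scale) in naive (left) and primed (middle) cells, and the log2 ratio of the shares where a bin pair had at least 10 counts over both states and a count in each (right, values past the ends of the scale drawn in its end colours). Blue cells, higher in naive, prevail in the quadrant that holds Myc and Pvt1, and the diagonal on the upstream side is pale to red.

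The second viewpoint allowed a comparison with the same genes seen from between them. From cMyc-2, Myc was contacted in 955 naive counts (7.64%, 7.18 to 8.12) and in 294 primed counts (2.81%, 2.50 to 3.15), a ratio of 2.72 (2.38 to 3.11). The ratio from cMyc divided by that from cMyc-2 was 0.734 (0.585 to 0.921, a normal approximation of the log quotient, as for the quotients of ratios below), so the difference at Myc was smaller from cMyc. For Pvt1 the cMyc-2 ratio was 1.21 (1.16 to 1.26), with 44.6% in naive and 37.0% in primed cells, and the quotient of the ratios was 1.54 (1.44 to 1.65). The difference at Pvt1 was thus larger from cMyc. The pools of the viewpoints differed, and their part in these quotients cannot be told apart from that of position.

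The viewpoints also saw each other to a like degree. The 10 kb around the cMyc-2 oligo held 2.90% (2.55 to 3.29) of naive and 1.51% (1.20 to 1.88) of primed counts of cMyc, a ratio of 1.92 (1.48 to 2.51). The 10 kb around the cMyc oligo held 3.39% (3.07 to 3.72) and 1.71% (1.47 to 1.98) of those of cMyc-2, a ratio of 1.98 (1.66 to 2.37). The quotient of these ratios was 0.970 (0.714 to 1.32), so the same contact, captured from either end, had ratios that could not be told apart. The pools are sets of capture oligos, and the labels do not say whether they were applied to separate cells. The likeness is therefore not an independent check.

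A bin of the genome's grid around Myc gave another value than the gene's own span, whose ratio was 1.96 (1.64 to 2.35) with nothing left out around the oligo. The 10 kb grid bin that holds most of Myc begins 0.717 kb from the oligo start. With nothing left out around the oligo, that bin held 2111 naive and 1011 primed counts, a ratio of 1.30 (1.21 to 1.41) of the counts within 1 Mb. With the nearest 5 kb left out it held 473 and 149, a ratio of 2.02 (1.68 to 2.45). Most counts of that bin thus had a reporter within 5 kb of the oligo start.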

How the data were processed

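Tri-C pair tables of naive and primed J1 cells were analysed. Each lists 2 reporter fragments and, as deposited by the authors, the count of the pair, not normalized, 1 table per viewpoint and state. The authors' methods name CapCruncher in capture mode; the submitters' processing notes name mm10. How reads were aligned and duplicates removed is not given in those sources. File starts count from 0 and were made 1-based. Gene positions are those of RefSeq for GRCm38; the oligos came from the study's oligo list. All 46 tables were read for the entries, totals and ranks of the viewpoints, and only the 4 of cMyc and cMyc-2 for the other results.

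Members were pairs with both midpoints within 1 Mb of the oligo start. Counts with a reporter within 5 kb were left out. Shares, exact intervals and the rule for bins (1.5-fold, 50 counts, interval without 1) were computed in Python 3.11.15 with numpy 2.4.6, scipy 1.17.1 and pandas 2.3.3, and drawn with matplotlib 3.10.9. The bin calculation was tested on simulated data. With 1 table per state no test was run. Named were Myc and Pvt1, the other annotated genes, the 5 bins and 5 fragments with the most counts, and the 3 called bins and bin pairs with the highest and the 3 with the lowest ratios. Members and lists were chosen with earlier results of these data known. Alternatives were repeated pairs counted once, other distances left out, other windows, bins and minimum counts, the whole table as the total, overlap in place of midpoints and, chosen after seeing the data, neighbouring fragments left out. Promoter sequences of Myc and Pvt1 are not used here.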

Additional observations from a re-analysis of the deposited data

How the results depend on the processing

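Of 63 alternative values of the ratios, 51 stayed within the interval of the value given above and 12 moved past it. With a window of 200 kb the ratio became 1.45 for the share of counts in the window, 1.28 for pairs over 50 kb apart (from 0.959, with an interval now above 1), 1.03 for counts with 1 reporter on each side, 1.46 for Myc, 1.57 for Pvt1 and 2.04 for Myc from cMyc-2. With 500 kb it became 1.36 for the share in the window, 1.10 for pairs over 50 kb apart, 1.60 for Myc and 1.58 for Pvt1. Narrower windows leave out the far regions, whose shares were lower in naive cells. With 10 kb left out around the oligo, which removes most of Myc, its ratio was 1.58. With all counts of the table as the total, Pvt1 had 2.05. Myc and Pvt1 kept intervals above 1 throughout. Myc together with the cMyc-2 region ranged from 3.26 to 5.62, with an interval that included 1 in 4 of its alternatives.

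Counts of calls are given with the number of bins or bin pairs that had enough counts, after "of". Higher bins, 26 of 118 above, were 9 of 35 with a window of 200 kb, 41 of 141 with 5 kb bins, 11 of 83 with 20 kb bins, and 26 of 158 and 24 of 65 with minimums of 30 and 100 counts. Lower bins, 27 of 118 above, were 14 of 104 with each pair counted once, 8 of 35 and 13 of 71 with windows of 200 and 500 kb, and 42 of 158 and 8 of 65 with minimums of 30 and 100 counts. Higher bin pairs, 16 of 43 above, were 3 of 13 with each pair counted once, 8 of 26 and 9 of 38 with windows of 200 and 500 kb, 10 of 53 with 20 kb bins, 9 of 12 with a minimum of 100 and 1 of 3 with neighbouring fragments left out. Lower bin pairs, 7 of 43 above, were 2 of 13 with each pair counted once, 4 of 26 with 200 kb, 0 of 29 with 5 kb bins, 12 of 53 with 20 kb bins, 14 of 79 and 0 of 12 with minimums of 30 and 100, and 1 of 3 with neighbouring fragments left out. No tool tested these counts, and there is no p behind them.

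No paired analysis was possible because 1 table per state was given, taken as the pool of its replicates. Leaving out 1 replicate at a time was not run. Depth limits single bin pairs and pairs of Myc with small regions. Intervals treat counts as independent, so repeated copies of a molecule would make them too narrow. Neither the recovery of viewpoint molecules in each state nor the RNA of Myc or Pvt1 was measured here.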
